A study of Mus musculus with 18 samples.

Results

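Coagulation and fibrinolysis genes are described here as 32 genes, matched by symbol to the gene names of the deposited count tables, out of 40840 genes in each table. All 32 were found in both tables, and all 32 passed the filter on low counts in both models. They were divided by their main source into 23 hepatocyte factors, 5 endothelial members (Vwf, Thbd, Procr, Tfpi and F8) and 4 members of mixed source (F3, F2r, Plat and Plau). Liver was taken from female C57BL/6 mice that had been ovariectomized, in 2 obesity models, with 3 libraries per treatment and model and 18 in total. The diet-induced obesity (DIO) mice were wild type and their diet drew 45% of its calories from fat and held 0.2% cholesterol, and the ob/ob mice, which make no functional leptin, were kept on normal diet. For 6 weeks a minipump delivered either vehicle, or estradiol (E2) at a daily dose of 5 µg per kg, or PaPE-1, a pathway-preferential estrogen, at a daily dose of 300 µg per kg. The sample records say that 2 samples per group were sequenced, but 3 libraries per group were deposited and all were used.

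Clotting ends when thrombin, made from prothrombin, cuts fibrinogen into fibrin. Several proteases of the cascade activate the next one with the help of a cofactor. The liver makes most of these zymogens, the fibrinogen chains, their plasma inhibitors and plasminogen, whereas endothelium supplies von Willebrand factor, factor VIII, thrombomodulin, the endothelial protein C receptor and much of the tissue factor pathway inhibitor. Estrogens given to people are known to change several plasma clotting factors and to lower protein S, the cofactor of activated protein C.

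DIO libraries held from 16651616 to 21703791 counts and ob/ob libraries from 10470665 to 17021370. Expression is in CPM, the read count of a gene relative to the TMM-normalized size of its library. Differences are log2 fold changes, each with its standard error (SE), tested by edgeR's quasi-likelihood method. P-values were adjusted by Benjamini-Hochberg over all genes tested, 13884 for DIO and 13433 for ob/ob, and a gene is said to have risen or fallen where its adjusted p was under 0.05. Levels were compared within a model only, because the model and the preparation of its libraries cannot be told apart. Between the models only the effects of a compound against vehicle were compared, as interactions, and that limit holds for them too. Whole-liver RNA was measured, so fewer cells of a type and less RNA per cell cannot be told apart either. No label ties same-numbered libraries to one another. The p-values weigh a difference of group means against the spread between livers within groups, estimated from all libraries of the fit.

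The upstream sequences of 6 genes are shown because these genes either moved together or against the rest in ob/ob liver. They are the 250 bases before the annotated start of each gene, 5′ to 3′ on the gene's strand, taken from RefSeq on build GRCm38.p6. F7 lies at chr8:13025784-13026033 on the plus strand, F10 at chr8:13037058-13037307 on the plus strand, F11 at chr8:45262032-45262281 on the minus strand, Klkb1 at chr8:45294836-45295085 on the minus strand, Pros1 at chr16:62854057-62854306 on the plus strand and F2r at chr13:95618467-95618716 on the minus strand. Capitals mark matches to 2 of the motifs searched, the estrogen response element half-site (GGTCA, printed as TGACC where it lies on the other strand) and a C/EBP-type site (TTGCNNAA, printed as TTNNGCAA).
F7: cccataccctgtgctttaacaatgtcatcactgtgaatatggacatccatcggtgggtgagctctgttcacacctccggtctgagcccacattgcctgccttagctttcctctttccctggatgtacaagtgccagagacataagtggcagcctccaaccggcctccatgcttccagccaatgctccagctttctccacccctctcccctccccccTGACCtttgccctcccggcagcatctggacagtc
F10: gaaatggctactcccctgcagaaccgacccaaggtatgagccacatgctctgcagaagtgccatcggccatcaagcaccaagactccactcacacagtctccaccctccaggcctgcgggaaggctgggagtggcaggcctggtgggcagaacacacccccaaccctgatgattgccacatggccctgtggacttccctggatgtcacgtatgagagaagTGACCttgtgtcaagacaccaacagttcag
F11: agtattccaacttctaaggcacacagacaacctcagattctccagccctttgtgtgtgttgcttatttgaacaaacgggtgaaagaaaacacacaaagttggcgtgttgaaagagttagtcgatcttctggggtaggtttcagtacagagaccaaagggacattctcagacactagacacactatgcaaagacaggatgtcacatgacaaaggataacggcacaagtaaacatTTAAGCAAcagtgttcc
Klkb1: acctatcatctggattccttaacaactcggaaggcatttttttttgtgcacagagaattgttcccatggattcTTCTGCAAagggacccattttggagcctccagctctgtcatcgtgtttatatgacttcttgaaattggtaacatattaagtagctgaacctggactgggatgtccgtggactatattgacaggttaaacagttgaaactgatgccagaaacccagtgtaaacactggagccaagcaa
Pros1: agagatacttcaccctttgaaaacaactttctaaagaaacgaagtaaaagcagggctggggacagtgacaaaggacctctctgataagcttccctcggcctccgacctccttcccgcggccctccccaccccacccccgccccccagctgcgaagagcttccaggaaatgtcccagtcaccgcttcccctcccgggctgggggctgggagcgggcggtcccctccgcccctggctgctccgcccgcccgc
F2r: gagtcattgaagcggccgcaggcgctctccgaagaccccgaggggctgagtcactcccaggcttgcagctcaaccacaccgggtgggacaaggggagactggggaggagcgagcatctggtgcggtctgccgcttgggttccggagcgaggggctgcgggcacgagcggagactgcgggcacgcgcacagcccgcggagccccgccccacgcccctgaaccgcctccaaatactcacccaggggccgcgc

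The promoters of 24 of the 32 genes were in the RefSeq table, each of 300 bases with 250 before the start and 50 after it. The other 8 genes are Vwf, Thbd, Serpina10, Proc, Plat, Kng1, Plau and Plg. F7 had the half-site 30 to 34 bases before its start and F10 had it 26 to 30 bases before its start. Among the 24 promoters, 15 held the half-site on either strand, against 43.6% of all 27025 genes in the table. The full palindrome, with half-sites GGTCA and TGACC spaced by 3 bases, was in 0 of the 24 and in 0.074% of all genes. The C/EBP-type site was in 9 of the 24, among them F11, Klkb1, Fga and Fgb, against 12.2% of all genes. The HNF4 sequence CAAAGTCCA was in 0 of the 24 and in 0.555% of all genes. A match is a stretch of letters and not a measured site.

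In vehicle livers the fibrinogen chains led the set. On a scale per length (RPKM), the mean level of Fgb was 2267 ± 364 (SD, n = 3) in DIO liver and 1790 ± 249 (SD, n = 3) in ob/ob liver. Antithrombin (Serpinc1), plasminogen (Plg), prothrombin (F2) and kininogen (Kng1) followed in both models. Protein C (Proc) stood at 189 ± 5.08 RPKM in DIO liver (SD, n = 3), and its cofactor protein S (Pros1) at 18.9 ± 0.191. Of the 31 steps down the order from Fgb, 14 (DIO) and 12 (ob/ob) were larger than the spread, with the mean less its SD above the next mean plus its SD. The 5 endothelial members, with Plat and Plau, were at the bottom in both models, between 0.549 and 1.73 RPKM in DIO vehicle livers. Tissue plasminogen activator (Plat) had between 5 and 47 counts per library in DIO liver, and Procr between 15 and 27 in ob/ob liver, so these values carry wide errors. The 32 genes summed to between 2.31% and 3.30% of the TMM-normalized library size in DIO libraries and between 1.67% and 2.85% in ob/ob libraries.

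E2 in ob/ob liver was the comparison with vehicle in which these genes passed the threshold. In all, 9 of them rose and 2 fell. Those that rose were F11, F10, Proc, F7, Klkb1, Fga, Serpinf2, Fgb and Serpina10, by 1.31 to 1.93 fold, and those that fell were F2r and Pros1. By edgeR's quasi-likelihood test 9.81% of all tested genes rose and 12.3% fell in the same comparison. Of the 23 hepatocyte factors 9 rose, 1 fell and 13 did not pass, of the 5 endothelial members 0 passed, and of the 4 of mixed source 1 fell. In the same comparison 1 endothelial member, F8, had an unadjusted p under 0.05, and DESeq2's Wald test and limma voom called 15 and 13 of the 32 genes. Over all genes DESeq2 called 6.02% higher and 8.03% lower, and limma voom 9.86% and 12.1%. The DESeq2 shares, here and below, are over every gene with a p-value (22078 here), without the filter on low counts. In counts, DESeq2 called 1329 genes higher and 1772 lower, and edgeR 1318 and 1654. The median log2 fold change of the 32 was 0.34, against 0.01 for all genes tested.

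Among the vitamin K-dependent serine proteases, factor VII (F7), which starts the extrinsic pathway with tissue factor, had the largest increase. F7 was at 39.2, 29.9 and 47.2 CPM in the vehicle libraries L3, L8 and L13 and at 80.7, 74.2 and 70.5 CPM in the E2 libraries L1, L12 and L19. All 3 E2 livers were above all 3 vehicle livers, and the log2 fold change was 0.95 (SE 0.19, adjusted p = 0.00782). PaPE-1 livers, at 28.3, 46.9 and 44.1 CPM in L5, L6 and L16, were within the vehicle range in L6 and L16 and below the lowest vehicle liver in L5.
The next gene on the chromosome, F10 (GRCm39 chr8:13087308-13106676), which encodes factor X, where the common pathway begins, was at 329, 255 and 323 CPM with vehicle and at 518, 504 and 442 CPM with E2. Its log2 fold change was 0.69 (SE 0.14, adjusted p = 0.00646), and the 2 groups did not overlap. Proz, which encodes protein Z and is the third gene of this row after F7 (GRCm39 chr8:13075499-13085809) and F10, stood at 0.36 and did not pass (adjusted p = 0.131).
Protein C (Proc), the zymogen of the anticoagulant protease, was at 367, 296 and 368 CPM with vehicle and 526, 582 and 512 CPM with E2. The E2 livers were again all higher, with a log2 change of 0.65 (SE 0.14, adjusted p = 0.00715). Prothrombin (F2), at 0.38, and factor IX (F9), at -0.07, did not pass.

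Pros1, which encodes protein S, went the other way from Proc. It was at 73.1, 64.1 and 58.6 CPM in vehicle livers and 49.7, 41.2 and 43.2 CPM in E2 livers, and the groups did not overlap. Its log2 fold change was -0.55 (SE 0.12, adjusted p = 0.00782). PaPE-1 livers were at 61.0, 58.4 and 61.9 CPM, within or just below the vehicle values. The ratio of Proc to Pros1 CPM within a library, chosen after the values were seen, was between 4.62 and 6.27 with vehicle, between 10.6 and 14.1 with E2 and between 5.05 and 6.73 with PaPE-1. In DIO liver the ratio was between 6.49 and 6.85 with vehicle, between 6.40 and 8.61 with E2 and between 9.01 and 10.9 with PaPE-1.

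Of the contact and intrinsic factors, F11 and its neighbour Klkb1 rose. Factor XI (F11) was at 32.4, 23.5 and 25.7 CPM with vehicle and 40.1, 50.6 and 49.6 CPM with E2, a log2 change of 0.78 (SE 0.15, adjusted p = 0.00503). Plasma prekallikrein (Klkb1), whose gene lies next to F11 on chromosome 8, was at 231, 175 and 197 CPM with vehicle and 295, 298 and 266 CPM with E2 (log2 fold change 0.51, SE 0.13, adjusted p = 0.0137). For both genes every E2 liver exceeded every vehicle liver. Factor XII (F12) and the kininogens Kng1 and Kng2, which carry bradykinin, had log2 fold changes of 0.35, 0.30 and 0.32 and did not pass. Kng1 and Kng2 are close copies whose reads may be shared between them.

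Of the fibrinogen chains, Fga and Fgb rose and Fgg did not pass. Fga was at 3522, 2736 and 3550 CPM with vehicle and 4891, 4894 and 4401 CPM with E2 (log2 fold change 0.53, SE 0.14, adjusted p = 0.0177). Fgb was at 3306, 2561 and 3287 CPM with vehicle and 4582, 4081 and 3894 CPM with E2 (log2 fold change 0.46, SE 0.14, adjusted p = 0.0378). Fgg, at 0.41 on the log2 scale, had an adjusted p of 0.0715. All 3 chains were higher in each E2 liver than in any vehicle liver. F13b, the carrier subunit of the cross-linking factor XIII, had a log2 fold change of -0.14.

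Among inhibitors, Serpina10, the protein Z-dependent protease inhibitor, rose. It was at 192, 151 and 165 CPM with vehicle and 242, 213 and 212 CPM with E2 (log2 fold change 0.39, adjusted p = 0.0486). Antithrombin (Serpinc1), which inactivates thrombin and factor Xa, had a log2 change of 0.38 (adjusted p = 0.0632), heparin cofactor II (Serpind1) 0.23, and Tfpi, which blocks factor VIIa with tissue factor, 0.32. In fibrinolysis, Serpinf2 (α2-antiplasmin, the inhibitor of plasmin) rose from 520, 394 and 474 CPM to 742, 755 and 593 CPM, a log2 change of 0.59 (SE 0.17, adjusted p = 0.0271). Plasminogen (Plg), at 0.44, the thrombin-activatable inhibitor of fibrinolysis (Cpb2), at 0.11, urokinase (Plau), at 0.16, and Plat, at -0.82, did not pass. The cofactor gene F5 stood at -0.36 and tissue factor (F3), the initiator, at -0.37, and F8 at 0.37, and none of these passed.

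The thrombin receptor F2r (protease-activated receptor 1) fell the most. It was at 52.2, 52.5 and 41.1 CPM with vehicle and 15.5, 17.1 and 18.9 CPM with E2, a log2 change of -1.50 (SE 0.18, adjusted p = 0.00125). All 3 E2 livers were far below all 3 vehicle livers, and the fitted fold was 0.354. With PaPE-1 the livers stood at 45.5, 27.6 and 45.3 CPM, between the vehicle and E2 values for 1 library and among the vehicle values for the other two. F2r lies at GRCm39 chr13:95738288-95754974.

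Every E2 liver was above every vehicle liver for 19 of the 32 genes and below for 3, against 20.7% and 20.8% of all tested genes. The 3 lower genes were F2r, Pros1 and Procr. Without the E2 library L12, 6 genes passed, namely F7, F10, Proc, F11, Pros1 and F2r, and Fga, Klkb1, Serpinf2, Fgb and Serpina10 did not. The calls over all genes were also fewer in that fit, at 2.52% higher and 3.18% lower. Those 6 also passed in each of the 16 alternatives run, whereas Fgb passed in 9 of them and Serpina10 in 7.

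**Figure D1:**
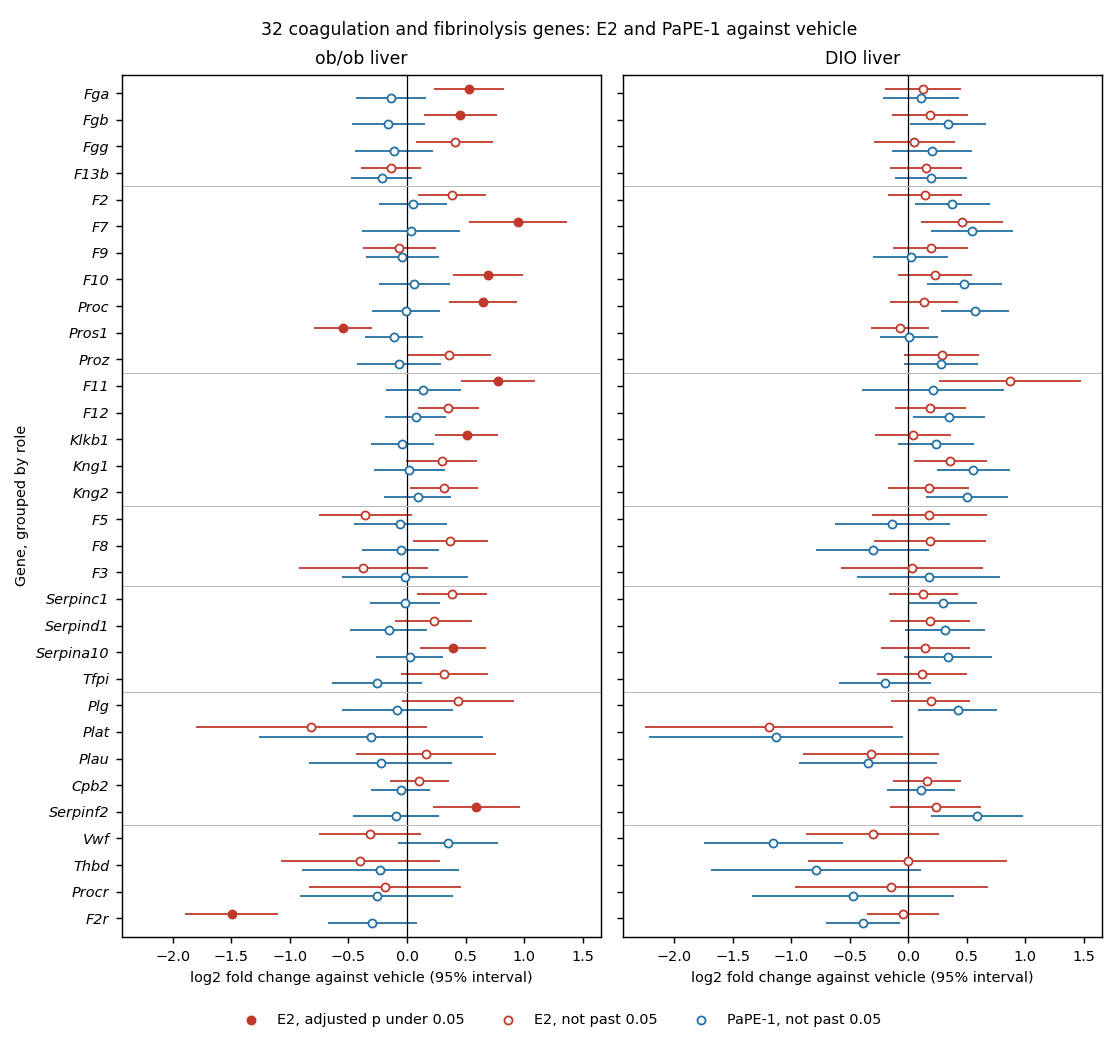
Log2 fold changes against vehicle of the 32 genes, in rows by role, in ob/ob liver (left) and DIO liver (right), with bars for the 95% interval from edgeR. Filled points mark genes with an adjusted p under 0.05: 11 for E2 in ob/ob liver and 0 elsewhere.

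**Figure D2:**
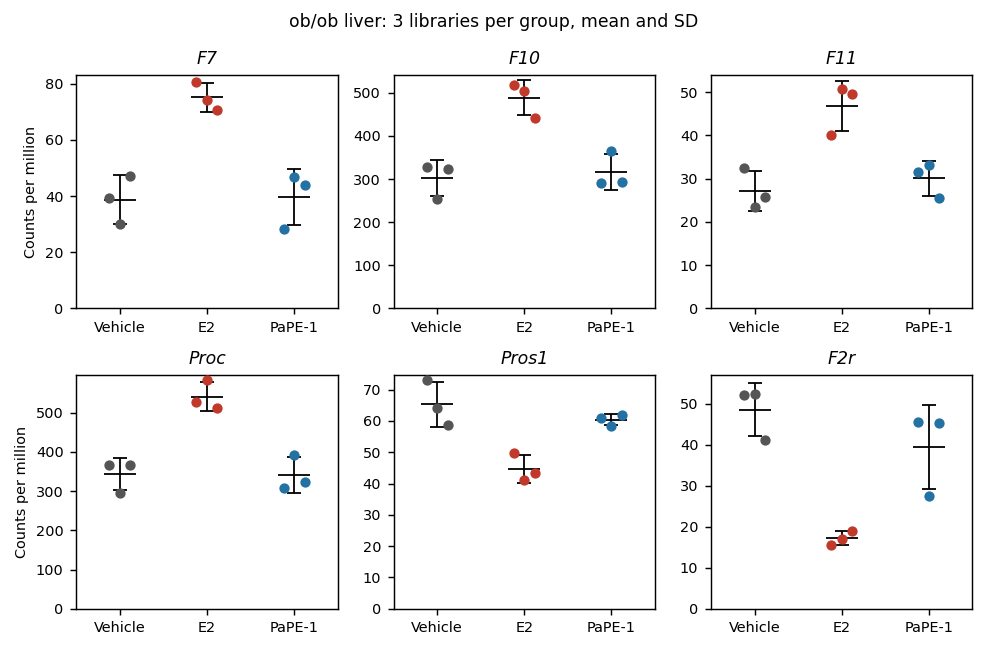
CPM of F7, F10, F11, Proc, Pros1 and F2r in each ob/ob library, with vertical axes from 0 and black bars for the mean and SD of 3 libraries. F7, F10, F11 and Proc stood higher and Pros1 and F2r lower in all 3 E2 libraries than in any vehicle or PaPE-1 library.

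PaPE-1 against vehicle in ob/ob liver moved none of the 32 genes past the threshold. In the fit of all 9 libraries no gene of the whole table passed either (0% in each direction by edgeR's quasi-likelihood test), and 0 of the 32 had an unadjusted p under 0.05 in that test, against 0.998% of tested genes higher and 1.65% lower. DESeq2's Wald test and limma voom called 0 of the 32 as well. The smallest unadjusted p were those of Vwf, F13b, F2r, Tfpi, Fgb and Serpind1. Vwf was at 7.07, 12.2 and 9.28 CPM with vehicle and 14.2, 11.8 and 10.2 CPM with PaPE-1, so the groups overlapped, and its log2 fold change was 0.35 (unadjusted p = 0.0982 from edgeR). F13b had -0.21, F2r -0.30, Tfpi -0.26, Fgb -0.16 and Serpind1 -0.16. The 95% intervals allow a log2 fold change of up to 0.45 for F7, between -0.30 and 0.28 for Proc and between -0.36 and 0.14 for Pros1.

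PaPE-1 and E2, given at different doses and compared as given, differed in 13 of the 32 genes in ob/ob liver. Relative to E2 livers, PaPE-1 livers were higher in F2r (log2 fold change 1.20), Pros1 (0.43) and Vwf (0.67), and lower in Proc (-0.66), Fga (-0.67), F7 (-0.92), F10 (-0.63), Klkb1 (-0.55), F11 (-0.64), Fgb (-0.62), Serpinf2 (-0.68), Fgg (-0.52) and Tfpi (-0.58). Of all tested genes, 10% were higher and 7.45% lower by the same test. In Vwf the E2 libraries were at 8.25, 6.57 and 7.96 CPM and all lay below the PaPE-1 libraries, adjusted p = 0.0362 (edgeR). PaPE-1 livers were above every E2 liver in 3 of the genes and below in 20, against 19.1% and 18.2% of all tested genes. Without the E2 library L12 only F2r passed, against 2.14% of all genes higher and 1.46% lower. Without the PaPE-1 library L5 the count was 7, against 6.7% and 4.57%, and without L16 it was 8, against 4.15% and 2.54%. This comparison uses the same E2 libraries as E2 against vehicle, and in both models the comparisons of E2 and of PaPE-1 with vehicle share their vehicle libraries.

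Markers of several cell types moved with these changes in ob/ob liver, and their part in the gene changes was not tested. Of all tested genes 9.81% rose and 12.3% fell with E2 against vehicle. The summed level of 9 hepatocyte markers, such as Alb and Ttr, was between 160647 and 178784 CPM in E2 livers, between 95938 and 124736 CPM in vehicle livers and between 102222 and 129441 CPM in PaPE-1 livers, and 6 of the 9 rose with E2. Of 16 endothelial markers 14 rose with E2 and 0 fell, and their sum was between 479 and 589 CPM against 296 to 319 CPM with vehicle. The 5 endothelial members here had a median log2 fold change of -0.18, while the 16 endothelial markers had 0.77. Of the 5 members 0 passed, and they went both ways, from -0.40 to 0.37, with 2 above 0. Every E2 liver was above every vehicle liver for F8 and Tfpi and below for Procr, against 20.7% and 20.8% of all tested genes. The 23 hepatocyte factors had a median of 0.38, and the 9 hepatocyte markers 0.61. With PaPE-1 relative to E2, all 16 endothelial markers were lower, with a median of -0.87. Of the 9 hepatocyte markers 5 were lower and 0 higher, with a median of -0.55. Of all tested genes 7.45% were lower in that comparison. Of 10 macrophage markers 7 rose with E2 and all 8 neutrophil markers rose. The neutrophil sum was between 89.3 and 351 CPM, against 5.32 to 6.28 CPM with vehicle and 3.12 to 61.8 CPM with PaPE-1. The 6 platelet markers summed to between 8.32 and 19.2 CPM with E2 and between 4.55 and 6.62 CPM with vehicle. With PaPE-1 their sum was between 3.63 and 20.2 CPM, and 0 of the 3 tested passed with E2. Of 14 acute phase genes 2 rose with E2, and of 6 cholangiocyte markers 0 passed. Of 8 stellate cell markers 1 rose and 0 fell, and their log2 fold changes went both ways, from -1.09 to 0.73. In vehicle livers the hepatocyte markers were lowest in L8, the library with the lowest depth. Its cholangiocyte markers summed to 552 CPM, against 220 CPM in L3 and 126 CPM in L13. Without L8 the E2 count was 8, where 6.07% of all genes rose and 8.94% fell.

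**Figure D3:**
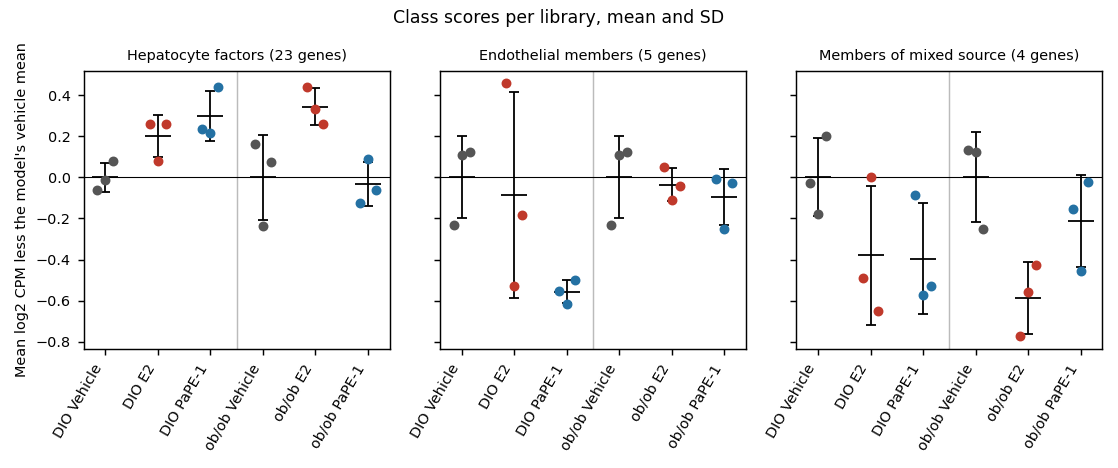
Mean log2 CPM of the 23 hepatocyte factors, 5 endothelial members and 4 members of mixed source, less the vehicle mean of the model, in each library, with bars for the mean and SD. In ob/ob liver the hepatocyte factors were higher in the 3 E2 livers than in the others, and in DIO liver the endothelial mean was lowest with PaPE-1, at -0.56.

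Class scores put these values side by side. The score of the 23 hepatocyte factors, on a log2 scale relative to the vehicle livers of the model, was 0.34 ± 0.09 (SD, n = 3) with E2 and -0.03 ± 0.11 with PaPE-1 in ob/ob liver, and the vehicle livers themselves varied by 0.21 (SD). In DIO liver it was 0.20 ± 0.10 with E2 and 0.30 ± 0.12 with PaPE-1, against an SD of 0.07 for vehicle. The 5 endothelial members scored -0.56 ± 0.06 with PaPE-1 in DIO liver and -0.08 ± 0.50 with E2, where the library WE3 stood at 0.46 and the other two below 0. In ob/ob liver they scored -0.03 ± 0.08 with E2, a mean of members that went both ways, and -0.09 ± 0.14 with PaPE-1. The members of mixed source scored -0.59 ± 0.17 with E2 and -0.21 ± 0.22 with PaPE-1 in ob/ob liver, and -0.38 ± 0.34 and -0.40 ± 0.27 in DIO liver.

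In DIO liver no coagulation gene passed the threshold in the fit of all 9 libraries, and by edgeR's quasi-likelihood test no gene of the table passed against vehicle for either compound in that fit (0% in each direction). With PaPE-1, 11 of the 32 had an unadjusted p under 0.05 above 0 and 3 below, against 11.4% and 9.68% of all genes tested. PaPE-1 livers were above every vehicle liver in 13 genes and below in 5, against 16.4% and 15.8%. DESeq2's Wald test called 7 of the 32, with 6 higher and 1 lower, against 2.32% and 0.972% of its 22831 genes. Limma voom called 0 of the 32. With edgeR fitted to the vehicle and PaPE-1 libraries alone 4 of the 32 passed, against 3.43% of all genes higher and 2.25% lower. With the E2 library WE3 left out of the fit 3 passed, against 2.74% and 1.59%. The fold changes of the 23 hepatocyte factors were above 0 in 22 and those of the 5 endothelial members below 0 in 5. These are counts of direction and not calls, and 47.1% of all genes tested were above 0. The 16 endothelial markers described above had a median log2 fold change of -0.12, with 5 above 0. Their sum was between 353 and 393 CPM against 365 to 437 CPM with vehicle, and their part in these values was not tested.

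The member with the smallest unadjusted p was Proc. It was at 411, 414 and 432 CPM in the vehicle libraries WV7, WV8 and WV9 and at 606, 576 and 684 CPM in the PaPE-1 libraries WP11, WP12 and WP24, a log2 change of 0.57 (SE 0.13, adjusted p = 0.0714). Vwf, the adhesion protein that carries factor VIII, was at 6.32, 7.95 and 8.77 CPM with vehicle and 3.22, 4.42 and 2.63 CPM with PaPE-1 (log2 fold change -1.15, SE 0.27, adjusted p = 0.0729). Both genes had groups that did not overlap. Kng1 was at 2007, 2027 and 2297 CPM with vehicle and 3252, 2729 and 3324 CPM with PaPE-1 (log2 fold change 0.56, adjusted p = 0.0826). F7 (0.54), F10 (0.48) and Serpinf2 (0.59) had adjusted p of 0.106, 0.110 and 0.111. After removal of the trend with gene length the log2 fold change of Vwf was -0.87 and that of F8 was 0.01 in place of -0.30. All 9 hepatocyte markers also had an unadjusted p under 0.05 and stood above 0 with PaPE-1, with a sum between 120780 and 149432 CPM against 90712 to 101252 CPM with vehicle, and the part of this in the values above was not tested.

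**Figure D4:**
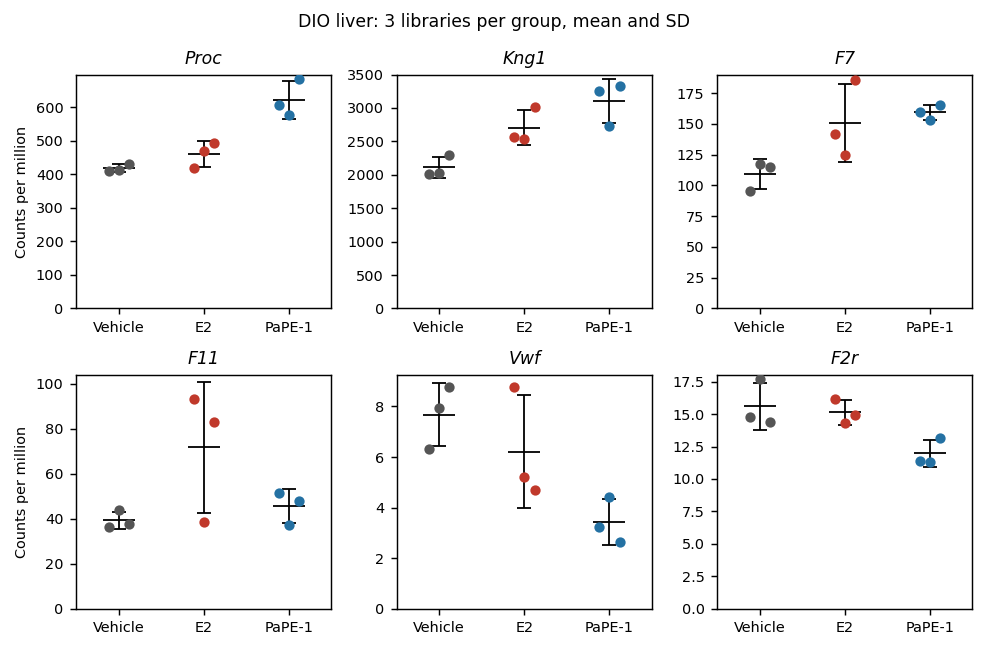
CPM of Proc, Kng1, F7, F11, Vwf and F2r in each DIO library, with vertical axes from 0 and black bars for the mean and SD of 3 libraries. Proc, Kng1 and F7 were higher and Vwf lower in all 3 PaPE-1 libraries than in any vehicle library, and F11 was high in 2 of the 3 E2 libraries.

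E2 in DIO liver gave 3 genes above 0 with an unadjusted p under 0.05, F11 (0.87), F7 (0.46) and Kng1 (0.36), and 1 below, Plat (-1.19), against 2.72% and 2.5% of all genes tested. DESeq2's Wald test and limma voom called 0 of the 32. F11 was at 36.4, 43.7 and 37.8 CPM with vehicle and 93.2, 38.7 and 83.3 CPM with E2, so 1 E2 library, WE14, overlapped the vehicle libraries. Without WE14 F11 passed, as did 0.474% of all genes above 0 and 0.467% below. Proz (0.29) and F10 (0.23) came next, with unadjusted p of 0.0742 and 0.138. The values of Plat, at 1.05, 1.05 and 2.28 CPM with vehicle and 0.633, 1.0 and 0.257 CPM with E2, rest on few counts. The hepatocyte markers summed to between 104855 and 139762 CPM with E2, above the vehicle range of 90712 to 101252 CPM, and 4 of the 9 had an unadjusted p under 0.05. Of the 10 macrophage markers 9 did, with a sum between 612 and 780 CPM against 397 to 519 CPM, and the endothelial markers summed to between 402 and 517 CPM against 365 to 437 CPM. The part of these in the values of E2 was not tested.

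PaPE-1 and E2 in DIO liver differed in none of the 32 genes at the threshold, while 0.0216% of all genes were higher and 0.0144% lower by edgeR's quasi-likelihood test. One gene was above 0 with an unadjusted p under 0.05 and 4 were below it, against 8.41% and 8.62%. Proc (0.43), Vwf (-0.85), F11 (-0.66), F2r (-0.34), F8 (-0.49) and Kng2 (0.33) had the smallest unadjusted p. All 9 hepatocyte markers were above 0 in this comparison, with a median of 0.30, and 5 had an unadjusted p under 0.05. The 16 endothelial markers had a median of -0.29, with 5 above 0 and 5 below 0 at an unadjusted p under 0.05. The part of these in the gene values was not tested. DESeq2's Wald test called Proc, against 0.543% of its 22831 genes higher and 0.473% lower, and limma voom called 0. F11 passed in edgeR without the E2 library WE14, against 2.56% and 3.08% in that fit.

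The effects of E2 in the 2 models differed in 1 gene of the 32. The E2 effect on F2r was lower in ob/ob than in DIO liver by a log2 difference of -1.47 (SE 0.23) with an adjusted p of 0.0285, by edgeR's quasi-likelihood test over 14171 genes and 18 libraries. In DIO liver F2r was at 14.7, 17.7 and 14.4 CPM with vehicle and 16.1, 14.3 and 14.9 CPM with E2, so the groups overlapped there. Of all genes tested, 0.00706% had a higher and 0.00706% a lower E2 effect in ob/ob liver. Limma voom called 0 of the 32 and DESeq2 2, F2r and Pros1, against 0.469% of its 24095 genes higher and 0.934% lower. The call of F2r was lost without any of WE18, WV9, L3, L8 or L12. For PaPE-1 no member passed (0% of all genes in each direction by edgeR), 1 had an unadjusted p under 0.05 above 0 and 7 below, against 4.84% and 7.29% of all genes. The largest was Vwf, at 1.48 (unadjusted p = 0.000435, adjusted p = 0.190), which passed without WP12, where 0.111% of all genes were higher and 0.305% lower. DESeq2 called 2, Proc and Kng1, against 0.0581% and 0.602% of its 24095 genes, and limma voom called 0.

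Other genes of the pathway were read from a list of 39, of which 33 were tested in ob/ob liver. With E2, 6 rose and 3 fell by edgeR's quasi-likelihood test with adjusted p, where 9.81% of all tested genes rose and 12.3% fell. Serping1, the C1 inhibitor that restrains kallikrein and factor XIIa, rose by a log2 fold change of 0.76. Stab2, a scavenger receptor of liver sinusoids that clears von Willebrand factor, rose by 1.12, and Asgr2, a subunit of the asialoglycoprotein receptor, by 0.70. Anxa5, a phospholipid-binding anticoagulant protein, fell by 0.89 on the log2 scale. Vkorc1, the vitamin K epoxide reductase that the vitamin K-dependent factors need, was among the risen genes, and F2rl1, protease-activated receptor 2, among the fallen ones. Of 11 regulators 2 rose (the nuclear receptor CAR, encoded by Nr1i3, at 1.30, and Esr1) and 1 fell (Ppargc1a), against the same shares. Relative to E2, PaPE-1 left 3 of the 33 higher and 6 lower, against 10% and 7.45% of all tested genes. The first by adjusted p were Anxa5 (1.0), Serping1 (-0.70), Asgr2 (-0.66), F2rl1 (2.72) and Stab2 (-0.90). With PaPE-1 against vehicle none of the 33 passed in ob/ob liver, and none of the 31 tested in DIO liver passed with either compound.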

How the data were processed

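Liver RNA-seq of 18 libraries was used. The authors deposited raw gene counts for each model, made by aligning reads with STAR (2.7.6a, as named in the submitters' processing notes) and counting them with featureCounts (2.0.0, strand option 2, per the file headers) on the RefSeq genes of GRCm39. The paper's methods name other tools for part of this. The deposited tables also give an exon length per gene, in bases, used for RPKM, and the score of a class is computed here from log2 CPM. Tables of the authors' DESeq2 results (log2 fold changes, p-values and normalized counts) were not used. All sample columns were matched (0 unmatched).

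Counts were filtered with filterByExpr, scaled by TMM and tested with edgeR (4.0.16) by robust quasi-likelihood, one mean per group, over the 9 libraries of a model, or the 18 for the interactions, in R (4.3.3). For log2 CPM a prior count of 2 was added. The edgeR fit of E2 against vehicle was checked on simulated counts in each model. With 3 livers per arm the smallest exact permutation p is 0.1, so none was used. Genes were named by a rule: every gene past an adjusted p of 0.05, otherwise up to 6 by smallest unadjusted p, values per library for up to 12, and up to 5 other pathway genes or regulators per comparison. Some values outside that rule were added after they were seen. The genes and lists were chosen with earlier results of these data known.

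Alternatives were DESeq2 (1.42.0) size factors and Wald test, limma voom (3.58.1), other filters on low counts, a fit to the compared groups, removal of the trend with gene length and each library left out.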

Additional observations from a re-analysis of the deposited data

Results flagged for a closer look

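The effect of E2 on F2r was flagged because it differed between the models in a test of the difference itself. The log2 difference (ob/ob less DIO) was -1.47, with an adjusted p of 0.0285 in edgeR's quasi-likelihood test over 18 libraries. In ob/ob liver all 3 E2 livers were below all 3 vehicle livers, and in DIO liver the groups overlapped. The test does not separate the model from the preparation of its libraries. Groups of 3 livers are too small for a search for outlying samples.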

How the results depend on the processing

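No member reversed its direction under any alternative where it passed the threshold in either fit. In ob/ob liver the E2 count of 11 was between 9 and 15 under the alternatives that kept all libraries, and between 6 and 13 with a library left out, lowest without L12. The count of PaPE-1 against E2 (13) was between 1 and 16 with a library left out. In DIO liver the PaPE-1 count of 0 became 7 with DESeq2, 1 without a filter, 4 with the compared groups alone and between 0 and 3 with a library left out. The E2 count of 0 became 1 at most with a library left out, and that of PaPE-1 against E2 became 1 with DESeq2 and 1 at most with a library left out. The E2 interaction count of 1 became 2 with DESeq2, 0 with limma voom and between 0 and 1 with a library left out, and the PaPE-1 interaction count of 0 became 2 with DESeq2, 1 without a filter and between 0 and 1 with a library left out. The cause was not tested. With 3 livers a group and members such as Plat at a few counts per library, a difference that did not pass is not shown to be absent. No paired analysis was possible because the labels give no replicate numbers that groups share.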
